A study of Mus musculus with 12 samples.

Results

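The comparison described here is the second day of culture of monocytes that lack Nr4a3. It sets the 2 libraries of Nr4a3 KO cells kept for 2 days with GM-CSF and IL-4 (KO day 2) against the 2 libraries of Nr4a3 KO cells kept for 1 day (KO day 1), which are 4 of the 12 libraries of the series. The members were taken by their labels and not by any measured value. All libraries are poly(A) RNA from bone marrow monocytes of mice on a C57BL/6 background. The other groups, of 2 libraries each, are sorted KO monocytes and wild-type (WT) cells, either sorted or cultured with the same cytokines for 1 or 2 days. The labels describe neither the Nr4a3 allele nor the number of mice behind a library. File names carry dates, by which day 1 and day 2 came from different experiments, so that day of culture and experiment cannot be told apart. The day 2 replicates carry dates of consecutive days and were taken as separate experiments, which the labels do not state. File names also give 16 hours for day 1 replicate 2, labelled as 1 day.

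NR4A3 belongs to a family of orphan nuclear receptors, NR4A, whose genes are switched on quickly by many stimuli and whose proteins bind DNA without a known hormone. GM-CSF signals through JAK2 and STAT5, and IL-4 through STAT6, and the pair is a standard way to grow dendritic cells from monocytes. Cells on this path lose monocyte genes, gain antigen presentation by MHC class II, and on maturation gain costimulatory ligands and the migration receptor CCR7. The question named by the title of the series is the part of NR4A3 in this differentiation.

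Reads counted in genes ran from 5905266 (KO day 2 replicate 1) to 18447405 (KO day 1 replicate 2) in the 4 libraries. Levels are CPM, read counts scaled to a common size of the TMM-adjusted libraries, and a log2 fold change is day 2 over day 1 with its SE. Tests are edgeR quasi-likelihood tests over all 12 libraries with p-values adjusted over 14034 genes, and "passed" means an adjusted p under 0.05. These p-values rest on the spread between the 2 libraries of a group, taken here as 2 experiments. That spread is pooled over all groups of the 12 libraries and partly shared between genes. It is not the spread of the KO day 1 and KO day 2 groups alone.

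The targeted gene was low but not absent in KO cells. Nr4a3 (chromosome 4, 48045153 to 48086447, GRCm38) was at 0.928 and 0 CPM in the sorted KO monocytes, at 6.58 and 0 CPM in KO day 1, and at 39.0 and 19.3 CPM in KO day 2. WT cells held 16.5 and 10.4 CPM at day 1 against 1287 and 1358 CPM at day 2. The 6.58 CPM are 76 reads in KO day 1 replicate 1, against 0 reads in replicate 2. The KO day 2 libraries held 234 and 236 reads. Whether the label of KO day 1 replicate 1 holds was not tested, and it is called the library labelled KO day 1 replicate 1. The count covers the whole gene and does not tell which exons the reads came from. The KO rise in Nr4a3 was 3.20 ± 1.27 on the log2 scale and did not pass (edgeR adjusted p = 0.222). Without the library labelled KO day 1 replicate 1 it was fitted at 11.41. That value rests on how the fit treats 0 reads, since KO day 1 replicate 2 held none. Of the other family members, Nr4a2 stood at 0.26 and 0.985 CPM at day 1 and at 10.0 and 14.1 CPM at day 2 (adjusted p = 0.19). Nr4a1 stayed under 3 CPM in all 4 libraries, against 703 and 277 CPM in sorted KO monocytes.

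The library labelled KO day 1 replicate 1 also stood apart from the other day 1 libraries. On the first principal component of all 12 libraries, which held 52.9% of the variance, it lay at 1.60, while KO day 1 replicate 2 and both WT day 1 libraries lay between 38.4 and 46.7, and the KO day 2 libraries at 78.6 and 91.3. It exceeded replicate 2 in 44 of 45 interferon-stimulated genes, with a median log2 ratio of 2.40, against a median of -0.07 over all genes tested. It was below replicate 2 in 49 of 49 ribosomal protein genes (7491 of all 14034 genes tested). Several IL-4 response genes were low in it. Chil3, a chitinase-like protein, stood at 277 CPM in it and 4238 in replicate 2, and Retnla at 2.25 and 253 CPM. Many results below are therefore also given without this library. The KO day 2 libraries differed in Xist, the transcript of the inactive X chromosome, with 794 CPM in replicate 1 and 0.0818 CPM in replicate 2.

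Between day 1 and day 2 of culture, KO cells gained transcripts of dendritic cell maturation (Ccl22, Cd40, Cd83, Cd86), of dendritic cell surface proteins (Ly75, Dpp4, Itgae) and of sterol synthesis (Cyp51, Sqle). They lost Vcan, Ccr1 and Myc. In all, 211 genes were higher and 76 lower at day 2 (2.05% of 14034 genes, 1.50% higher and 0.542% lower). The median log2 fold change was 3.26 among the higher and -1.88 among the lower, and 209 and 75 of them were protein-coding genes. Without the library labelled KO day 1 replicate 1, 123 genes were higher and 89 lower (1.40% of 15159 genes, 0.811% higher and 0.587% lower). Of these, 83 of the higher were shared with the fit on all libraries, 39.3% of its 211 and 67.5% of the 123. For the lower, 44 were shared, 57.9% of the 76 and 49.4% of the 89. The count of lower genes fell to 7 without KO day 2 replicate 1 and to 10 without KO day 2 replicate 2. The higher genes fell to 95 and 112 in the same fits, and to 123 higher with 70 lower without KO day 1 replicate 2. In every fit run with all libraries or with 1 KO library left out, 57 genes were called higher and 4 lower. Ccl22, Cd40, Ly75 and Dpp4 are among the 57, while Cd83, Cd86, Itgae, Cyp51 and Sqle each lost the call in at least 1 of these fits. Lilra6 and Gm14548 are among the 4 lower ones, and Vcan, Ccr1 and Myc are not.

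**Figure D1:**
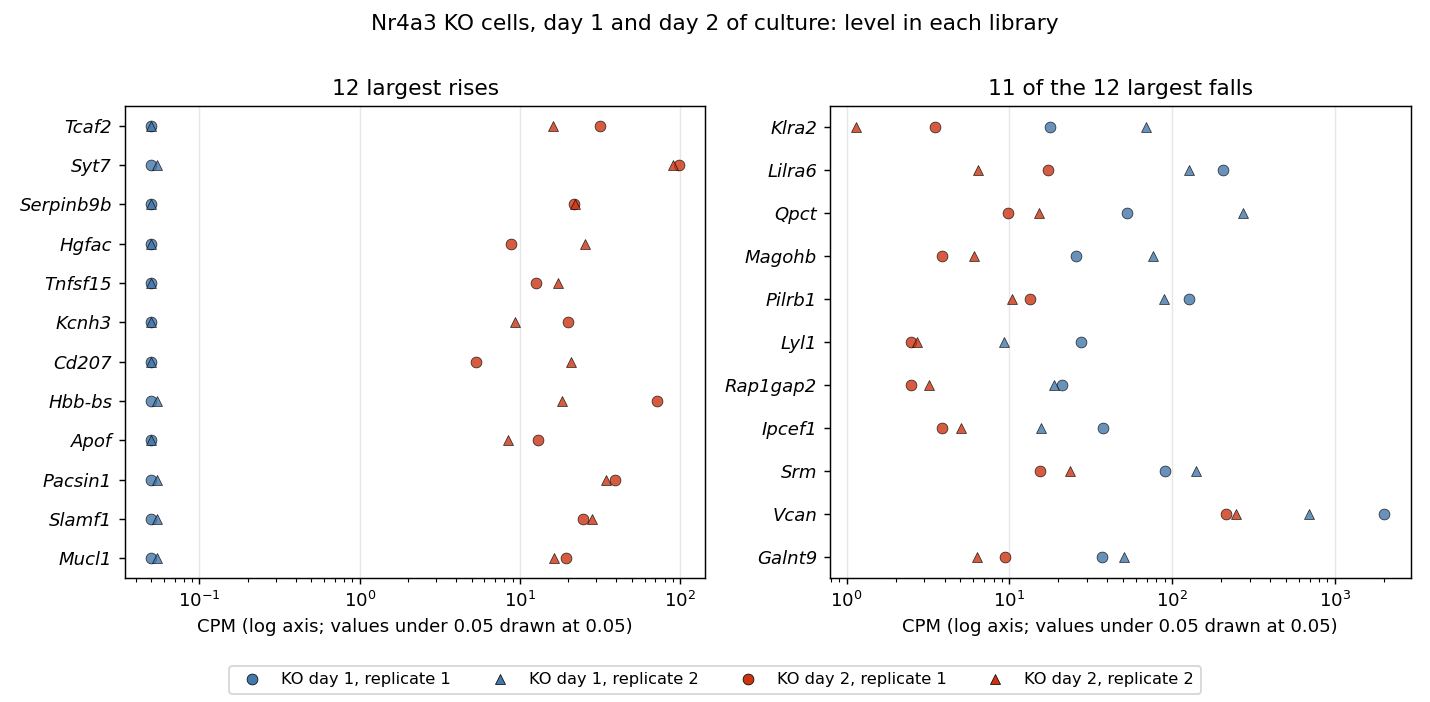
CPM (log axis) of the 12 genes with the largest rises (left) and 11 of the 12 with the largest falls (right) in the 4 libraries, blue for KO day 1 and red for KO day 2, circles for replicate 1 and triangles for replicate 2. Values under 0.05 CPM are drawn at 0.05. The days do not overlap for any gene drawn, which the choice of genes required, and the rises start from 0 or 1 read at day 1.

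The 12 largest rises began at or near no reads, which a ranking by log2 fold change favours. Tcaf2, a partner of TRP channels, had 0 reads in both KO day 1 libraries and 31.7 and 16.1 CPM at day 2, which makes it at least 238-fold higher with 3 counts over the group as the floor (adjusted p = 0.00169). Syt7, a synaptotagmin of lysosome exocytosis, had 1 read at day 1 and 98.2 and 90.7 CPM at day 2, a ratio of 2779 with a 95% counting interval of 498 to 109840 (adjusted p = 0.000779). Serpinb9b, a relative of the granzyme B inhibitor, stood at 21.7 and 22.1 CPM at day 2, a rise of at least 218-fold. The choice of the 12 genes required that the days do not overlap, so their separation is not a result.

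Cd207 encodes langerin, the C-type lectin of Langerhans cells. It had 0 reads at day 1 and 5.34 and 20.7 CPM at day 2, a rise of at least 129-fold (adjusted p = 0.0442). The Cd207 call was lost in each fit without 1 KO library. Tnfsf15, the TNF family ligand TL1A, went from 0 reads to 12.7 and 17.3 CPM, at least 149-fold higher (adjusted p = 0.0124). Slamf1, a costimulatory receptor of the SLAM family, went from 1 read to 24.8 and 28.1 CPM (adjusted p = 0.0253), a call also lost in each of those fits. Pacsin1, an endocytosis protein also used as a plasmacytoid dendritic cell marker, went from 1 read to 39.0 and 34.6 CPM (adjusted p = 0.000956). Hgfac, an activator of hepatocyte growth factor, Kcnh3, a potassium channel, Apof, an apolipoprotein, and Mucl1 were the others outside globin. Of all 12 rises, 7 passed in each of the fits without 1 KO library, and 11 were called higher in WT cells too. Apof did not pass in WT (log2 fold change 2.58, adjusted p = 0.164).

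The remaining one of the 12 was Hbb-bs, a beta-globin of red cells, at 0 and 0.0547 CPM at day 1 against 71.9 and 18.2 CPM at day 2. It moved with the other globins. Of 7 erythroid markers tested, 4 were called higher (Hba-a1, Hba-a2, Hbb-bs and Hbb-bt), and 1 of the 7 in each of the fits without either KO day 1 library or without KO day 2 replicate 1. Their summed level was 0 and 0.0547 CPM at day 1 against 111 and 28.6 CPM at day 2, against 61.3 and 35.8 CPM in sorted KO monocytes and 54.5 and 17.6 CPM in WT day 2. Klf1 and Gata1 were too low to be tested. The part of red cell RNA in the other rises was not tested.

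The 12 largest falls held genes of surface receptors, enzymes and a matrix proteoglycan. Vcan, the matrix proteoglycan versican, went from 2007 and 694 CPM to 214 and 248 CPM (-2.55 ± 0.50, adjusted p = 0.0292). Without the library labelled KO day 1 replicate 1 the change was -1.56. The call was lost without that library and without either KO day 2 library. That both day 2 libraries lie below both day 1 libraries was required by the choice of these 12 genes.

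Srm, the spermidine synthase of polyamine production, fell from 90.4 and 140 CPM to 15.5 and 23.6 CPM (-2.55 ± 0.35, adjusted p = 0.00752, 0.0642 without KO day 2 replicate 1). Qpct, the glutaminyl cyclase that modifies chemokine ends, fell from 52.8 and 272 CPM to 9.84 and 15.2 CPM (-3.69 ± 0.67, adjusted p = 0.0233), and kept the call only without the library labelled KO day 1 replicate 1 (0.00338) among the fits without 1 KO library. Lyl1, a blood-lineage transcription factor, fell from 27.6 and 9.30 CPM to 2.5 and 2.7 CPM (-2.81 ± 0.48, adjusted p = 0.0176, 0.101 and 0.0992 without KO day 2 replicate 1 or 2). Klra2, Lilra6 and Pilrb1 are receptor genes of multigene families, where reads that fit several copies were not counted, so their values are uncertain. Of the 12 falls, 2, Lilra6 among them, passed in each of the fits without 1 KO library. Without KO day 2 replicate 1, 2 of the 12 passed, and 3 without KO day 2 replicate 2.

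Dendritic cell maturation and migration genes were the list with the most calls. Of its 30 members, 10 were higher and 0 lower at day 2, against 1.50% and 0.542% of all genes tested. The median log2 fold change was 2.00 against -0.01 over all genes tested. In 18 of the 30, day 2 values were above both day 1 values (27.2% of all genes). Ccl22, the chemokine that draws CCR4-bearing T cells, stood at 79.3 and 19.3 CPM at day 1 and at 5087 and 3532 CPM at day 2 (6.45 ± 0.69, adjusted p = 0.00163). Serpinb9, the granzyme B inhibitor, went from 3.55 and 5.31 CPM to 278 and 263 CPM (5.92 ± 0.54, adjusted p = 0.000956). Cd40, the receptor for T cell help, went from 31.4 and 23.9 CPM to 355 and 198 CPM (3.32 ± 0.36, adjusted p = 0.00163). The smaller of the day 2 values was above the larger day 1 value in all 3 genes, and each passed in every fit without 1 KO library.

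Traf1, Cd83, Il4i1, Cd86, Pdcd1lg2, Marcks and Marcksl1 also passed, with log2 fold changes from 2.15 to 4.07. Of these, Cd83, Il4i1, Cd86, Pdcd1lg2 and Marcks lost the call without the library labelled KO day 1 replicate 1. Marcksl1 kept it in that fit but lost it in each fit without another KO library. Traf1 kept it in every fit without 1 KO library. Not all of the program passed. Ccr7, the receptor that guides dendritic cells to lymph nodes, stood at 15.4 and 0.164 CPM at day 1 and at 98.0 and 9.08 CPM at day 2 (2.80, adjusted p = 0.31). Fscn1, the actin bundler of mature dendritic cells, stood at 33.2 and 0.164 CPM and then at 107 and 23.6 CPM (adjusted p = 0.52). For both, the library labelled KO day 1 replicate 1 lay above the lower day 2 library. Without it the fitted log2 fold change was 8.28 for Ccr7 and 8.56 for Fscn1. Those values rest on KO day 1 replicate 2 alone, where 0.164 CPM is the level of 3 counts. Ccr7 and Fscn1 are named here after their values were seen. Without that library 9 of the 30 were higher, with a median of 2.44, and the count was 5 without KO day 2 replicate 1. Called in each of these fits were 4 of the 30, and DESeq2 called 13 higher and 0 lower.

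**Figure D2:**
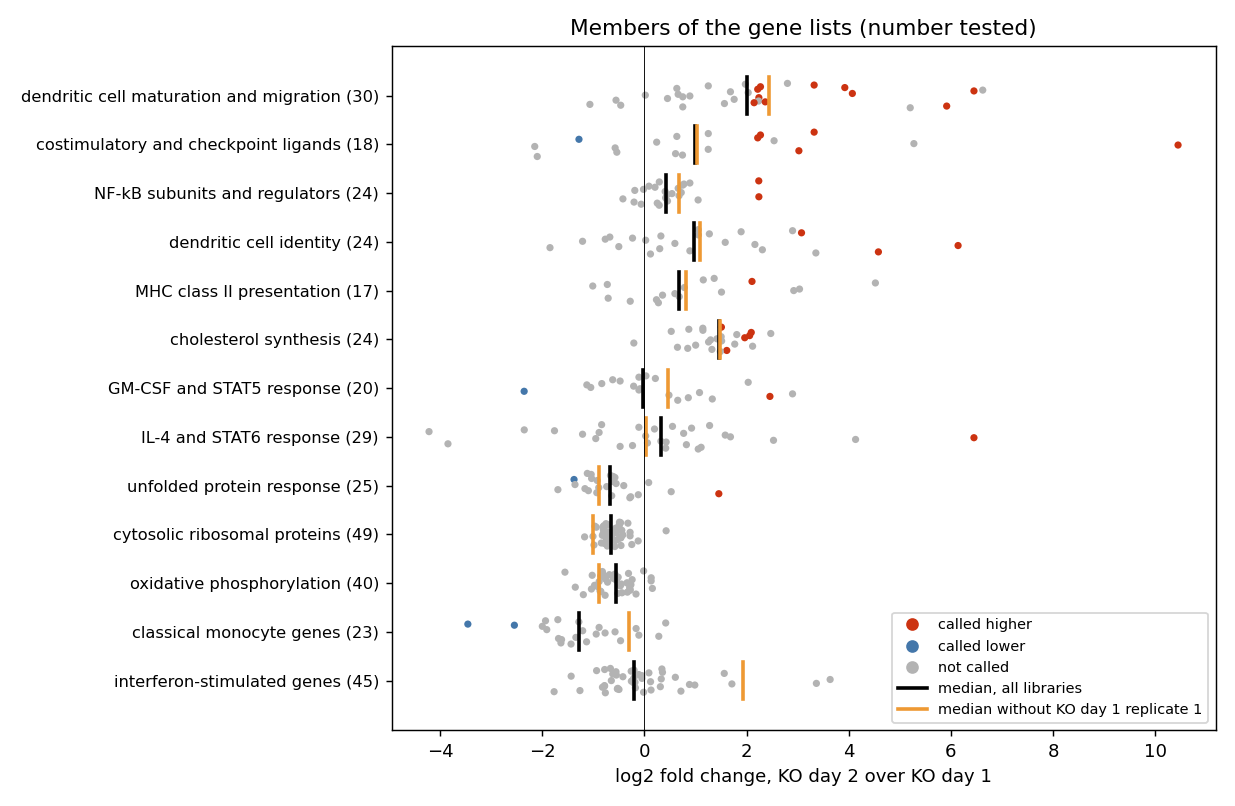
Log2 fold change from KO day 1 to KO day 2 (x axis) of each tested member of 13 gene lists (y axis), red where called higher, blue where called lower and grey where not called. Black bars are medians over all libraries and orange bars medians without the library labelled KO day 1 replicate 1. Maturation genes spread to the right with a median of 2.00, sterol genes cluster at 1.45, and the interferon median moves from -0.21 to 1.93 with the library left out.

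Among 18 costimulatory and checkpoint ligands, 5 were higher (Cd40, Cd86, Pdcd1lg2, Tnfsf15 and Nectin2) and 1 lower. Among all genes tested, 1.50% were higher and 0.542% lower. Nectin2, a ligand of TIGIT and CD226, went from 8.05 and 16.1 CPM to 106 and 91.7 CPM (3.02 ± 0.47, adjusted p = 0.0124). Pdcd1lg2, the PD-1 ligand PD-L2, went from 53.3 and 101 CPM to 314 and 403 CPM (2.22 ± 0.40, adjusted p = 0.0233, 0.0982 without KO day 2 replicate 2, 0.0783 without the library labelled KO day 1 replicate 1). The lower member was Icosl, the ligand of ICOS, at 60.3 and 48.3 CPM and then 25.2 and 19.6 CPM (-1.28 ± 0.28, adjusted p = 0.047, 0.142 without the library labelled KO day 1 replicate 1). Cd274, the PD-1 ligand PD-L1, stood at 153 and 140 CPM and then at 261 and 194 CPM and did not pass (adjusted p = 0.442). Without the library labelled KO day 1 replicate 1 the counts were 3 higher and 0 lower, as they were without KO day 2 replicate 2.

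Of 24 NF-kB subunits and regulators, 2 were higher, and both passed in every fit without 1 KO library. With all libraries, 1.50% of all genes tested were higher. Rel, the c-Rel subunit, went from 65.5 and 68.9 CPM to 344 and 290 CPM (2.24 ± 0.31, adjusted p = 0.00752). Traf1, an adaptor of TNF receptors, went from 45.4 and 56.1 CPM to 267 and 213 CPM. Among 20 genes of the GM-CSF response, Stat5a, the transcription factor of that receptor, rose from 74.0 and 58.0 CPM to 423 and 303 CPM (2.46 ± 0.32, adjusted p = 0.00554). Myc, a driver of growth, fell from 94.9 and 118 CPM to 15.0 and 26.3 CPM (-2.36 ± 0.48, adjusted p = 0.0334, 0.0636 to 0.239 in the fits without 1 KO library). Cell cycle genes gave 0 calls among 40 in edgeR and in DESeq2 (2 at an unadjusted p under 0.05 in edgeR), with a median of 0.12, and Mki67 stood at 296 and 300 CPM and then at 474 and 423 CPM.

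Dendritic cell identity genes gave 3 higher of 24 (1.50% of all genes). Ly75, the endocytic receptor DEC-205, went from 9.35 and 3.88 CPM to 160 and 154 CPM (4.58 ± 0.45, adjusted p = 0.0012). Itgae, the CD103 integrin chain, went from 0.779 and 4.21 CPM to 91.0 and 275 CPM (6.14 ± 0.99, adjusted p = 0.0176, 0.0527 without the library labelled KO day 1 replicate 1). Dpp4, the surface peptidase CD26, went from 2.34 and 3.06 CPM to 31.2 and 15.1 CPM (3.08 ± 0.44, adjusted p = 0.00841). Zbtb46, the transcription factor of classical dendritic cells, stood at 5.37 and 33.6 CPM and then at 60.2 and 85.5 CPM and did not pass (adjusted p = 0.166). Summed over 12 markers of monocyte-derived dendritic cells, the level was 14304 and 14070 CPM at day 1 against 39716 and 47007 CPM at day 2, with 324 and 335 CPM in sorted KO monocytes. In bulk RNA a change in the number of cells of a type and a change in RNA per cell cannot be told apart.

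MHC class II presentation gave 1 call among 17 genes, where 2.05% of all genes were called. H2-Eb1, a class II beta chain, went from 1621 and 789 CPM to 5264 and 5112 CPM (2.11 ± 0.44, adjusted p = 0.0366, 0.0335 without the library labelled KO day 1 replicate 1). The call was lost in each of the fits without another KO library, and DESeq2 called 7 of the 17 higher and 1 lower. Cd74, the invariant chain, stood at 6366 and 4087 CPM and then at 13671 and 16073 CPM (1.51 ± 0.34, adjusted p = 0.0505). Ciita, the master regulator of class II genes, stood at 373 and 263 CPM and then at 374 and 588 CPM (adjusted p = 0.45). Summed class II expression was 16654 and 12071 CPM at day 1 against 32588 and 35606 CPM at day 2, with no overlap between the days. The 21 MHC class I genes gave 0 calls in edgeR and in DESeq2 (5 at an unadjusted p under 0.05 in edgeR), with a median of 0.43.

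Sterol synthesis genes gave 5 higher of 24 and 0 lower, against 1.50% and 0.542% of all genes. In 23 of the 24 both day 2 values were above both day 1 values, against 27.2% of all genes, with a median log2 fold change of 1.45. Cyp51, the lanosterol demethylase, went from 29.4 and 35.8 CPM to 125 and 129 CPM (1.96 ± 0.32, adjusted p = 0.0144). Sqle, squalene epoxidase, went from 20.0 and 23 CPM to 79.7 and 99.5 CPM (2.06 ± 0.40, adjusted p = 0.028). Hmgcs1, Idi1 and Stard4 were the other 3. Without the library labelled KO day 1 replicate 1 the median was 1.48, and it lay between 1.255 and 1.508 without 1 of the other KO libraries. No call of the list held in all of these fits, and DESeq2 called 14 with all libraries. Scd1, a fatty acid desaturase, rose from 0.519 and 0.821 CPM to 22.3 and 30.5 CPM (5.25 ± 0.42, adjusted p = 0.000956) and passed in every fit without 1 KO library.

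**Figure D3:**
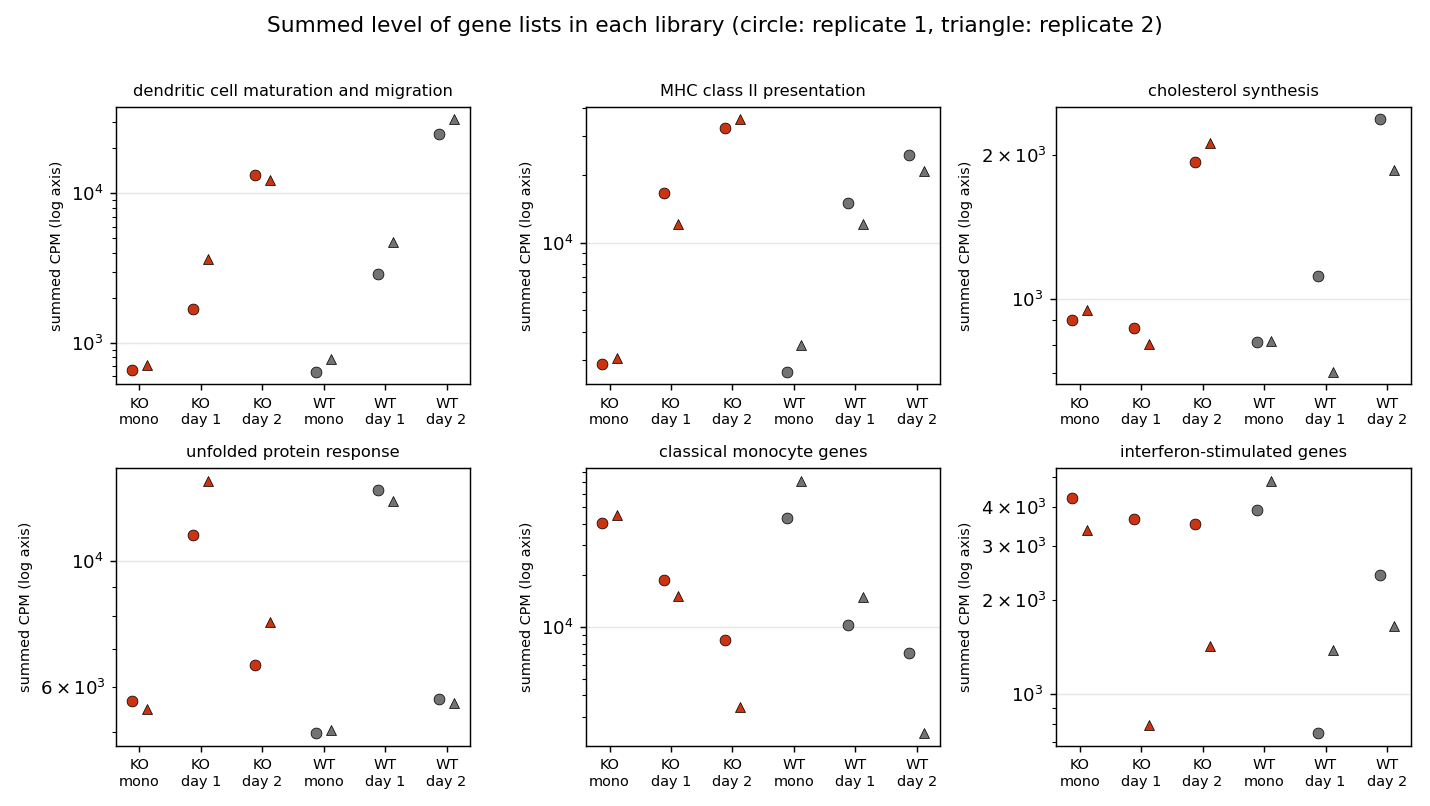
Summed CPM (log axis) of 6 gene lists in all 12 libraries, red for KO and grey for WT, circles for replicate 1 and triangles for replicate 2. In KO cells the maturation sum goes from 1690 and 3636 CPM at day 1 to 13341 and 12245 CPM at day 2, and the interferon sum of the library labelled KO day 1 replicate 1 lies at 3655 CPM, above the 795 CPM of replicate 2.

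Genes of the unfolded protein response, the chaperone program of the endoplasmic reticulum, lay lower at day 2 in 19 of 25 without overlap (26.3% of all genes), with a median of -0.67. Only Pdia6, a disulfide isomerase, passed among the lower ones, from 655 and 933 CPM to 246 and 365 CPM (-1.38 ± 0.30, adjusted p = 0.0432). Hspa5, the chaperone BiP, stood at 1413 and 2130 CPM and then at 747 and 885 CPM (-1.12 ± 0.29, adjusted p = 0.0785). Ppp1r15a, a phosphatase subunit that restores translation, passed as higher, from 7.71 and 7.44 CPM to 22.2 and 19.5 CPM (1.46 ± 0.27, adjusted p = 0.0253). Without the library labelled KO day 1 replicate 1 the median was -0.88, and it lay between -0.79 and -0.588 without 1 of the other KO libraries. No call of the list held in all of these fits. DESeq2 called 6 lower and 1 higher with all libraries.

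Classical monocyte genes had a median of -1.28, with 2 of 23 lower (0.542% of all genes), Vcan among them, and 0 higher. Ccr2, the receptor that brings monocytes to tissue, stood at 1232 and 2462 CPM and then at 606 and 359 CPM (-1.94 ± 0.53, adjusted p = 0.0941). Lyz2, lysozyme, stood at 11499 and 6160 CPM and then at 4799 and 934 CPM (adjusted p = 0.415). The library labelled KO day 1 replicate 1 was above replicate 2 in 20 of the 23 (6216 of all 14034 genes tested), and without it the median was -0.29. Ccr1, an inflammatory chemokine receptor, fell from 150 and 177 CPM to 46.9 and 42.2 CPM (-1.88 ± 0.41, adjusted p = 0.0466). Fcgr2b, the inhibitory Fc receptor, fell from 1387 and 1622 CPM to 444 and 634 CPM (adjusted p = 0.0394). The Ccr1 and Fcgr2b calls were lost in each fit without 1 KO library.

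The interferon-stimulated genes depended on which KO libraries of both days were used. With all libraries 0 of 45 passed in edgeR, 4 had an unadjusted p under 0.05, DESeq2 called 2, and the median was -0.21. Without the library labelled KO day 1 replicate 1 the median was 1.93, and 2 passed as higher. Without KO day 1 replicate 2 it was -1.05 with 1 called lower (9 at an unadjusted p under 0.05). Without KO day 2 replicate 1 it was -1.03 and without KO day 2 replicate 2 it was 0.33, with 0 called in edgeR in both (1 and 4 at an unadjusted p under 0.05). Of the 2, Stat2, a subunit of the interferon-activated complex, stood at 146 and 36.8 CPM at day 1 and at 283 and 256 CPM at day 2 (1.56, adjusted p = 0.157, and 2.90, adjusted p = 0.0244, without the library labelled KO day 1 replicate 1). The other was Oas3. Summed levels at day 2 were 3532 and 1427 CPM, so the day 2 libraries differed as well.

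IL-4 response genes differed between the day 1 libraries in the other direction. Of 29 tested, 10 were more than 4-fold below replicate 2 in the library labelled KO day 1 replicate 1 (on CPM plus 0.5). Over all genes tested, 236 of 14034 were. In the list 1 gene, Ccl22, passed with all libraries (2.05% of all genes). Without that library, Retnla, Rnase2a and Arg1 were called lower and Ccl22 and Jak3 higher, and the list's median went from 0.32 to 0.03. Without KO day 1 replicate 2, 4 were called higher and 0 lower, with a median of 1.03. Arg1, arginase, stood at 2.42 and 171 CPM at day 1 and at 13 and 20.8 CPM at day 2 (-2.35, adjusted p = 0.35, and -3.31, adjusted p = 0.03, without the library labelled KO day 1 replicate 1). By the rule for genes called only without that library, the largest rises were Nr4a3, Flnc, Stat4, Rora, Il2ra and Slco4a1, and the largest falls Ear2, Hacd1, Ccl2, BC035044, P2ry10b and Psmg4. Ccl2, the ligand of CCR2, stood at 47.2 and 185 CPM at day 1 and at 20.0 and 21.6 CPM at day 2 (adjusted p = 0.0829, and 0.0299 without it).

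Matrix proteases and inhibitors gave 3 higher of 17 (1.50% of all genes). Only Serpinb6b kept the call in each fit without a day 1 library. Mmp25, a membrane-bound metalloprotease, went from 13.3 and 13.9 CPM to 297 and 313 CPM (4.48 ± 0.74, adjusted p = 0.0158, 0.0727 without KO day 1 replicate 2, 0.0679 without the library labelled replicate 1). Serpinb6b, a serine protease inhibitor, went from 1.30 and 0.109 CPM to 109 and 81.6 CPM (7.22 ± 0.89, adjusted p = 0.0059). Itgb3, the beta-3 integrin chain, rose from 1.13 and 0.547 CPM to 62.4 and 40.2 CPM (5.97 ± 0.64, adjusted p = 0.00163). Aldoc, a brain-type aldolase, rose from 2.34 and 3.23 CPM to 27.5 and 60.8 CPM (3.98 ± 0.47, adjusted p = 0.00288), while Aldoa, its abundant relative, stood at 1218 and 1245 CPM and then at 1264 and 1205 CPM. Cd14, the lipopolysaccharide co-receptor, rose from 12.5 and 4.43 CPM to 167 and 59.6 CPM (adjusted p = 0.0292), and the call was lost without KO day 1 replicate 2 (0.131) or KO day 2 replicate 1 (0.126). Dusp1, a MAP kinase phosphatase, rose from 6.49 and 12.6 CPM to 78.0 and 63.0 CPM (adjusted p = 0.0245), with values from 0.0521 to 0.0985 in the fits without 1 KO library.

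Markers of other cells were also read. Neutrophil markers summed to 1811 and 995 CPM at day 1 against 1162 and 1917 CPM at day 2. Of 18 tested, 1 was called (Fcnb, lower), where 2.05% of all genes were called. The Fcnb call was lost without the library labelled KO day 1 replicate 1 or either KO day 2 library. B cell markers summed to 33.9 and 45.0 CPM and then to 156 and 67.8 CPM, and T cell markers stayed under 5 CPM in sum with 7 of 10 too low to test. None of the 31 B cell, T cell, NK cell, eosinophil, mast cell or stromal markers tested passed in edgeR with all libraries. Of these, 5 had an unadjusted p under 0.05, and DESeq2 called 3. Eosinophil markers summed to 0.173 and 5.09 CPM at day 1 and to 34.8 and 25.5 CPM at day 2. Of the 5 tested, 5 were higher at day 2 without overlap (27.2% of all genes), with a median log2 fold change of 3.28. In WT they summed to 8.26 and 5.14 CPM at day 1 and to 18.7 and 6.7 CPM at day 2. Of plasmacytoid dendritic cell markers, Pacsin1 and Tcf4 were higher (1 of the list in the fits without either day 1 library or without KO day 2 replicate 2), while Siglech was too low to test. The part of these cells in the results was not tested.

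Promoters were searched for short motifs in the 250 bases before each gene's start (RefSeq, GRCm38.p6), on both strands and with overlaps between motifs kept, for the 165 of 211 higher and 63 of 76 lower genes with an entry. The monomer site of NR4A receptors (AAAGGTCA) was in 2 of the 165 and 1 of the 63 (1.21% and 1.59%), against 1.34% of all 27025 promoters and 0.839% of those of the genes tested. The kB site of NF-kB (GGANTTTCC) was in 2 and 0, against 1.08% of all and 1.21% of the genes tested. The AP-1 site (TGANTCA) was in 4 and 1 (2.42% and 1.59%), against 6.87% of all and 4.33% of the genes tested. The CREB site (TGACGTCA) was in 2 and 2 (1.21% and 3.17%), against 1.56% of all and 2.58% of the genes tested. The STAT5 site (TTCNNNGAA) was in 10 and 4 (6.06% and 6.35%), against 7.11% and 5.99%. Promoters of 3 called genes are printed because each holds an NR4A, AP-1 or kB match, shown in capitals, on the gene's strand from 250 bases before the start. They are H2-Eb1 (chr17:34305617-34305866, plus strand, NR4A monomer site on the opposite strand), Cd207 (chr6:83677858-83678107, minus strand, AP-1 site) and Csf1 (chr3:107760470-107760719, minus strand, kB site on the opposite strand). A match is a description of letters and not a bound site.
H2-Eb1: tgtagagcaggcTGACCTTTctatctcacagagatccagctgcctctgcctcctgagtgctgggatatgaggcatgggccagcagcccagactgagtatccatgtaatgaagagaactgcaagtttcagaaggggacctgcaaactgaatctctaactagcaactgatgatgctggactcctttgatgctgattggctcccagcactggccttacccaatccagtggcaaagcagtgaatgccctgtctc
Cd207: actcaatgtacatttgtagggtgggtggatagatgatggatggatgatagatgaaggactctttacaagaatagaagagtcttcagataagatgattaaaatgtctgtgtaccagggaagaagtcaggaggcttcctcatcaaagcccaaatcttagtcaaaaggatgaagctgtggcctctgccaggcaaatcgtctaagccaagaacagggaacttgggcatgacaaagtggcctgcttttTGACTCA
Csf1: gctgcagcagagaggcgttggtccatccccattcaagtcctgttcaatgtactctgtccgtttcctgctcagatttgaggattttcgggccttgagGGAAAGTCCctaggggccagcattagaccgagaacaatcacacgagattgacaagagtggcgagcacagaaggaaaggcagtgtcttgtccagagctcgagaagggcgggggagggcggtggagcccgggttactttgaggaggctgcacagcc

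The same step in WT cells gave 656 higher and 493 lower genes (8.19% of 14034, 4.67% higher and 3.51% lower). KO and WT libraries of a day share experiments by their dates. Of the 211 genes higher in KO, 211 had a positive WT change and 181 were called in WT, and of the 76 lower, 75 were negative and 69 called. Whether the KO change differs from the WT change was tested gene by gene as the difference of the 2 changes. No gene passed in edgeR (0 of 14034, 0%), 340 had an unadjusted p under 0.05 (2.42%, 260 lower and 80 higher in KO, 1.85% and 0.570%), and DESeq2 called 0 higher and 24 lower.

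**Figure D4:**
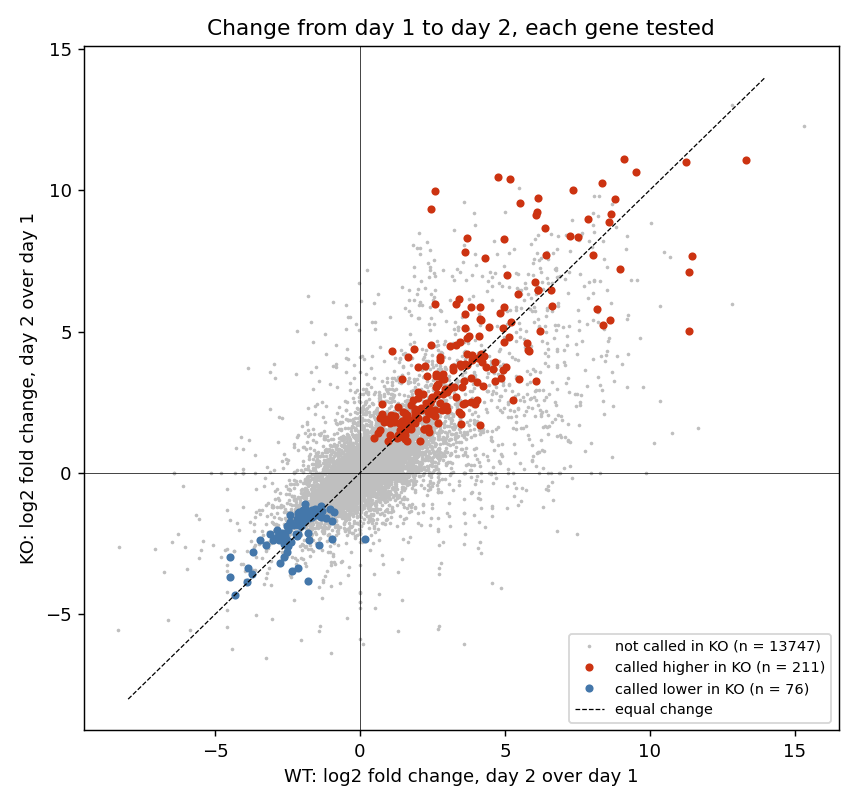
Log2 fold change from day 1 to day 2 in WT (x axis) and KO (y axis) for the 14034 genes tested, with the 211 called higher in KO in red and the 76 called lower in blue. The dashed line marks equal change. All 211 red points lie right of 0, and 75 of 76 blue points lie left of 0.

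The 8 genes with the smallest p for that difference had one shape. All 8 were called higher in WT, with log2 fold changes from 2.41 to 6.67, while in KO none was called and the changes ran from -1.07 to 0.75. Slc4a8, a sodium-driven bicarbonate exchanger, stood at 0.779 and 0.766 CPM and then at 0.500 and 0.327 CPM in KO, and at 1.32 and 0.490 CPM and then at 97.3 and 89.5 CPM in WT (difference -7.63 ± 0.90, adjusted p = 0.0685, 0.219 without the library labelled KO day 1 replicate 1). Map3k14, the kinase NIK of noncanonical NF-kB signalling, stood at 34.8 and 20.4 CPM and then at 55.0 and 33.4 CPM in KO, and at 33.0 and 25.5 CPM and then at 389 and 342 CPM in WT (-2.96 ± 0.50, adjusted p = 0.234). Samsn1, an adaptor of lymphocyte signalling, stood at 85.1 and 43.9 CPM and then at 43.5 and 18.3 CPM in KO and reached 414 and 362 CPM in WT day 2. The others were Ogfrl1, Atmin, Poglut1, Anxa3 and Hsf2, with adjusted p from 0.219 to 0.234. With experiment as a block, Slc4a8 and Map3k14 passed (adjusted p = 0.0382 each).

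**Figure D5:**
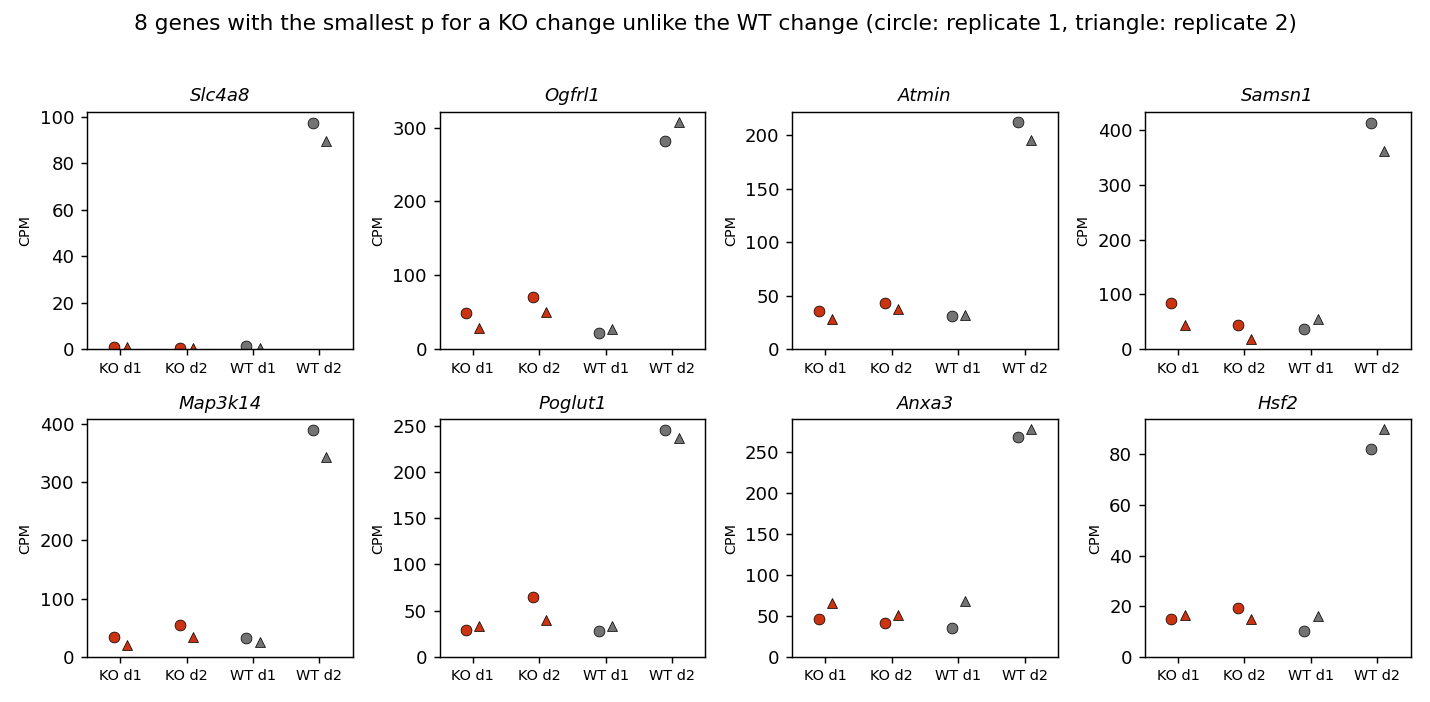
CPM (linear axes from 0) of the 8 genes with the smallest p for a KO change unlike the WT change, red for KO and grey for WT, circles for replicate 1 and triangles for replicate 2. In each panel both WT day 2 libraries stand above the other 6 libraries, as Slc4a8 shows with 97.3 and 89.5 CPM.

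Maturation genes had a smaller median change in KO than in WT cells. In WT, 21 of the 30 were higher, with a median of 2.99 against 2.00 in KO (2.44 without the library labelled KO day 1 replicate 1). Of the 30, 6 had an unadjusted p under 0.05 for a smaller change in KO (1.85% of all genes), though the list was chosen with earlier results known. Those 6 were Samsn1, Il15ra, Slco5a1, Tmem123, Cacnb3 and Cd200. Tmem123 stood at 262 and 209 CPM and then at 551 and 241 CPM in KO, and reached 1965 and 1292 CPM in WT day 2. Ccl22 and Cd40, in contrast, had differences of 0.32 ± 0.77 and 0.42 ± 0.47 on the log2 scale, each smaller than its SE. Scd1 rose in both but reached 218 and 228 CPM in WT day 2 (difference -3.14 ± 0.58, adjusted p = 0.374). Aldh1a2, the retinoic acid enzyme, stood at 4.24 and 2.74 CPM and then at 15.3 and 0.654 CPM in KO (adjusted p = 0.614), while its WT change was 7.17 (adjusted p = 0.00801). None of these differences passed after adjustment in edgeR.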

How the data were processed

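Per the labels' protocols, poly(A) RNA was sequenced from stranded libraries, and Trimmomatic 0.35, STAR 2.5.1b and GRCm38 were used, per the submitters' processing notes. Each deposited file gives raw read counts by gene ID, which the authors did not normalize, with an annotation release not given here. The counts for a reverse-stranded kit were used, and reads on the other strand made up 3.63% to 5.33%. Rows that name no gene stayed out of library sizes and tests, and in the 4 KO cultured libraries held 2.65% to 4.83% (unmapped), 5.29% to 6.99% (multimapping), 7.60% to 9.50% (outside genes) and 1.44% to 1.76% (ambiguous) of the reads. Of 47643 gene IDs, 47224 matched a symbol in GENCODE M21.

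The test was edgeR's (4.0.16, in R 4.3.3): TMM, filterByExpr, robust quasi-likelihood fit, 1 mean per group over 12 libraries (6 residual degrees of freedom), two-sided, Benjamini-Hochberg adjustment over 14034 genes. The fit was tested on simulated data. Gene lists were described by counts and medians. Counts of list members at an unadjusted p under 0.05 for KO day 2 against day 1 are given without the share over all genes. They therefore do not show an excess over the other genes. Depth was 5905266 to 18447405 reads in genes, and intervals and floors (3 counts over a group) cover counting error only. No library pair was within sampling noise (smallest chi-square per degree of freedom 11.1).

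The members and lists were chosen with earlier results of these data known. Named genes were the 12 largest rises and falls that passed, at 5 CPM or more on average and with no overlap of days (predicted genes left out), the NR4A genes, up to 4 passed and 3 not passed members of a list, 6 rises and 6 falls that were called only when the library labelled KO day 1 replicate 1 was left out, and the 8 smallest p-values of the difference between the KO and WT changes. Fewer are printed, some genes the rule names are not reported here, and Xist, Zbtb46, Ciita, Gm14548, Icosl, Retnla, Rnase2a, Arg1, Jak3, Oas3, Aldh1a2 and the 6 maturation genes with unlike changes were chosen after their values were seen. Alternatives were other normalizations, no low-count filter, DESeq2 1.42.0, fewer libraries, unstranded counts, blocks and leaving out each library.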

Additional observations from a re-analysis of the deposited data

How the results depend on the processing

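The count of genes changed from KO day 1 to KO day 2 depended on the fit. RLE gave 244 higher and 61 lower genes, upper-quartile scaling 241 and 65, and unstranded counts 210 and 74, all within 1.5 times the 211 and 76. Without a low-count filter there were 806 and 429, and DESeq2 gave 694 and 302. The 8 cultured libraries alone gave 287 higher and 125 lower, and the 4 KO libraries alone 20 and 0 (edgeR). Leaving out the library labelled KO day 1 replicate 1 together with WT monocytes replicate 2 gave 466 and 524. Leaving out 1 KO library at a time gave 95 to 123 higher and 7 to 89 lower, where the lone library of a day is assumed to vary like the other groups.

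KO day 1 and day 2 libraries share only a replicate number, and their deviations correlated at 0.164. KO and WT libraries of a day share experiments by their dates. Their deviations correlated at 0.194 at day 1 and 0.657 at day 2. With the replicate number as a block there were 324 higher and 228 lower genes, and without the library labelled KO day 1 replicate 1 the block gave 155 and 109.

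For the difference between the KO and WT changes, edgeR called 0 genes. No low-count filter gave 24 higher and 98 lower, DESeq2 24 lower, the replicate block by number 2 lower and the block by experiment 2 lower. Leaving out 1 library gave 0 to 7 in each direction, with 7 and 7 without KO day 1 replicate 2 and 1 lower without KO day 2 replicate 1. The cause of these shifts was not tested. Over all alternatives for named genes, 2595 values stayed called or stayed uncalled, 258 lost a call and 146 gained one. The 2595 include genes called in neither fit, and no called value changed sign. Of list medians, 261 moved by less than their spread over library pairs and 39 by more. Genes under 3 counts in a group limit the folds, since depth at day 2 began at 5905266 reads.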
